A study of Camelina sativa with 12 samples.

Results

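NAC019 and NAC055 are transcription factors of the NAC family, named for the NAM, ATAF1/2 and CUC2 proteins that share a plant-specific DNA-binding domain. In *Arabidopsis thaliana* the genes for NAC019, NAC055 and their close relative RD26 (NAC072) are induced by drought, high salinity and the hormone abscisic acid (ABA). NAC019 and NAC055 also act downstream of the transcription factor MYC2 in the response to jasmonic acid (JA) there, and all of these are background to the *Camelina sativa* data below. *C. sativa* is an oilseed crop with 3 sub-genomes, so that a gene of *A. thaliana* can have several copies, or homeologues.

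Of the 89418 genes in the table, 5 were followed: Csa17g093080, Csa14g063210 and Csa03g060000, which encode NAC019, and Csa01g018090 and Csa19g022270, which encode NAC055. They were chosen by the level of their transcripts in these same libraries. All 5 were selected on the study's list of genes changed with *P. migulae* 8R6 against the control, and 3 of them (Csa03g060000, Csa01g018090 and Csa19g022270) are also on its list for the *rolD::acdS* line. Low values in these comparisons are therefore not a finding, and the comparisons are given as a description with no test. The gene names are the study's, and 0 of the identifiers were found in the reference gene table, so gene lengths were not used and levels were not compared between genes. All 5 genes passed the filter on low counts.

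RNA of whole shoots was sequenced in 12 libraries, 3 biological replicates for each of 4 groups of 28-day-old cv. DH55 plants. Every plant had received NaCl at 15 dS m−1 (192 mM) for 21 days. The sample labels put the start of salt at 7 days after sowing, while the study's general methods name a later day. The control was non-transgenic DH55 in soil given buffer (MgSO4), and the *P. migulae* 8R6 group was DH55 in soil inoculated at sowing and again 1 week later with this bacterium, which produces 1-aminocyclopropane-1-carboxylate (ACC) deaminase, an enzyme that breaks down the precursor of ethylene. The *35S::acdS* and *rolD::acdS* groups were also given buffer. Each came from an individual single copy line expressing the ACC deaminase gene *acdS* of *Pseudomonas* sp. UW4. The gene was under the constitutive cauliflower mosaic virus promoter in the former and the *rolD* promoter of *Agrobacterium rhizogenes* in the latter. The study calls the *rolD* promoter root-specific but reports that it was also active in shoots. It reports far higher *acdS* expression in shoots under the cauliflower mosaic virus promoter. With 1 line for each construct, the promoter and the line cannot be told apart. Libraries from unsalted plants were not analysed here, so lower means lower than in salt-treated control plants. In RNA from whole shoots, fewer cells expressing a gene and less RNA per cell cannot be told apart.

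Libraries held 10520627 to 23587748 counts, and the shallowest count behind any value of the 5 genes was 21 (Csa01g018090 in *rolD::acdS* replicate 2). Levels are CPM, the counts of a gene scaled to a common library size with edgeR's TMM method. The 4 photosynthesis genes used to check the tissue (LHCB1.3, LHCB1.4, PSAD-1 and PsbQ-like 1) are genes that the study singles out for their levels with *P. migulae* 8R6, so that high values there were fixed by the choice. They had counts in every library, with 0 of the 4 at 0. Their summed level was 116 to 135 CPM with *P. migulae* 8R6, 38.8 to 52.5 CPM for the control, 40.1 to 59.0 CPM for *35S::acdS* and 55.7 to 73.5 CPM for *rolD::acdS*. The part of these differences in the values below was not tested.

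One control library stood apart for these genes. In control replicate 2 all 5 genes lay below their group mean, by a mean of 0.74 on the log2 scale (deviation -0.74), whereas all 5 lay above it in control replicate 1 (mean deviation 0.52) and in control replicate 3 (mean deviation 0.22). The depth of control replicate 2 (15827627 counts) lay between those of control replicate 1 (15004403) and control replicate 3 (23587748). Comparisons of the 5 genes with the control, and counts of libraries lying below the control, are given below with and without this library. Leaving out the lowest control library can only raise such a count, for these genes as for all genes tested.

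Csa17g093080, the NAC019 homeologue with the largest counts, stood at 119, 48.4 and 93.7 CPM in control replicates 1, 2 and 3. With *P. migulae* 8R6 it was 34.2, 30.3 and 15.5 CPM. The *35S::acdS* libraries gave 78.6, 87.1 and 62.1 CPM, and the *rolD::acdS* libraries 59.1, 34.9 and 55.7 CPM. All libraries with *P. migulae* 8R6 lay below the libraries of the 3 other groups, and the *35S::acdS* libraries lay above those of the *rolD::acdS* line, while the control libraries spanned both.

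Csa14g063210, also NAC019, was 98.6, 39.7 and 72.1 CPM in the control and 25.4, 23.3 and 11.3 CPM with *P. migulae* 8R6. Its level was 61.1, 64.9 and 38.3 CPM in the *35S::acdS* line and 44.7, 27.7 and 42.1 CPM in the *rolD::acdS* line. The libraries with *P. migulae* 8R6 again lay below all others, and the libraries of both transgenic lines overlapped.

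Csa03g060000, the NAC019 homeologue on the study's lists for both *P. migulae* 8R6 and the *rolD::acdS* line, was 56.6, 27.2 and 41.7 CPM in the control. With *P. migulae* 8R6 it was 12.2, 11.2 and 7.10 CPM. Libraries of the *35S::acdS* line gave 27.5, 29.5 and 21.5 CPM, and the *rolD::acdS* libraries 22.2, 10.2 and 19.8 CPM. Here the *rolD::acdS* libraries lay below all control libraries, and *rolD::acdS* replicate 2 lay among the libraries with *P. migulae* 8R6.

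The NAC055 homeologues had smaller counts. Csa01g018090 was 8.87, 3.73 and 9.18 CPM in the control and 3.34, 1.48 and 1.90 CPM with *P. migulae* 8R6. The *35S::acdS* libraries gave 4.07, 5.57 and 3.20 CPM, and the *rolD::acdS* libraries 3.51, 1.92 and 2.95 CPM. Libraries with *P. migulae* 8R6 and of the *rolD::acdS* line lay below all control libraries and overlapped with each other. Csa19g022270 was 26.7, 10.1 and 21.2 CPM in the control and 10.6, 7.23 and 6.57 CPM with *P. migulae* 8R6. Libraries of the *35S::acdS* line gave 13.5, 13.7 and 9.61 CPM, and the *rolD::acdS* libraries 10.9, 9.76 and 8.56 CPM. For Csa19g022270 control replicate 2 lay among the treated libraries, so that no group lay wholly below the control.

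**Figure D1:**
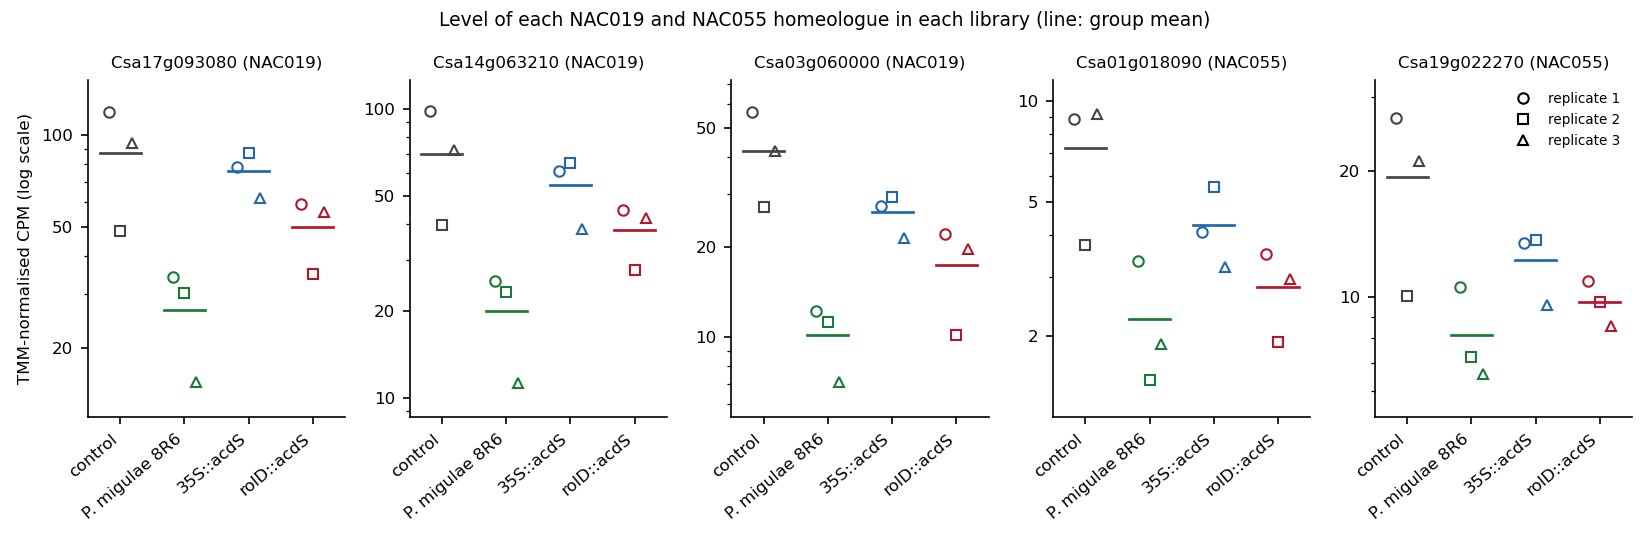
TMM-normalised CPM (log axis) of the 5 homeologues in each of the 12 libraries, grouped by treatment, with symbols for the replicates and a line at the mean of 3 libraries. In each panel the group means run from the control through *35S::acdS* and *rolD::acdS* to *P. migulae* 8R6, and control replicate 2 (square) is the lowest control library.

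In order of the group mean, all 5 genes ran control, *35S::acdS*, *rolD::acdS*, *P. migulae* 8R6. Both ends of this order are partly built in, since the genes were selected as lower with *P. migulae* 8R6 than in the control. For the genes also on the study's list for the *rolD::acdS* line, the low place of that line is partly built in too. Summed over the 5 genes, the level was 225 ± 90.8 CPM (SD, n = 3) for the control, 173 ± 34.4 CPM for *35S::acdS*, 118 ± 29.6 CPM for *rolD::acdS* and 67.2 ± 22.4 CPM for *P. migulae* 8R6. Neighbours in this order mostly overlapped: control and *35S::acdS* libraries overlapped for 5 of 5 genes, *35S::acdS* and *rolD::acdS* libraries for 4 of 5, and *rolD::acdS* and *P. migulae* 8R6 libraries for 3 of 5. In the same 3 pairs, the later group lay wholly below the earlier for 0, 1 and 2 of the 5 genes. Of all genes tested, 7.32%, 10.0% and 9.52% did so. The later group lay wholly above for 0 of the 5 genes in each pair, beside 3901, 5663 and 4871 of all 56932 genes tested. The coefficient of variation within a group, across the 5 genes, was 35.2% to 43.7% for the control, 26.5% to 43.5% for *P. migulae* 8R6, 12.2% to 36.4% for *rolD::acdS* and 16.0% to 28.0% for *35S::acdS*.

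With *P. migulae* 8R6, the comparison that chose the genes, the 3 NAC019 homeologues were 3.26-fold (Csa17g093080), 3.51-fold (Csa14g063210) and 4.10-fold (Csa03g060000) lower than in the control by the fitted values. The NAC055 homeologues were 3.18-fold (Csa01g018090) and 2.37-fold (Csa19g022270) lower. The log2 fold changes were between -2.04 (SE 0.32, Csa03g060000) and -1.24 (SE 0.30, Csa19g022270), with a median of -1.70. In 4 of the 5 genes the libraries with *P. migulae* 8R6 lay below all control libraries, beside 7.03% of all genes tested. Without control replicate 2 this held for 5 of 5 genes, beside 16.4% of all genes tested, and the median log2 fold change was -1.99. Leaving out control replicate 1 or control replicate 3 gave 4 of 5 and medians of -1.49 and -1.65.

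In the *rolD::acdS* line the 3 genes on the study's list for this line were 2.38-fold (Csa03g060000), 2.55-fold (Csa01g018090) and 1.97-fold (Csa19g022270) lower than in the control, with log2 fold changes of -1.25 (SE 0.31), -1.35 (SE 0.38) and -0.98 (SE 0.30). The 2 NAC019 homeologues that the list leaves out were just outside these values, at -0.87 (SE 0.35, Csa14g063210) and -0.80 (SE 0.34, Csa17g093080). The gap between the listed Csa19g022270 and the unlisted Csa14g063210 was smaller than either SE. Csa03g060000 and Csa01g018090, 2 of the 5 genes, had all *rolD::acdS* libraries below the control, beside 7.23% of all genes tested. This count became 5 of 5 without control replicate 2, beside 16.6% of all genes tested, and stayed at 2 without control replicate 1 or control replicate 3. The median log2 fold change of the 5 genes was -0.98, and it was -0.68, -1.28 and -0.90 without control replicates 1, 2 and 3.

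The next comparison, of the *35S::acdS* line with the control, was tested, since the *35S::acdS* libraries took no part in the choice of the genes. The same control libraries did take part, and the genes were selected as lower than in them. Values below 0 are therefore partly built in here too. None of the 5 genes passed (0 of 5 called by the quasi-likelihood test of edgeR, where a call needed a Benjamini-Hochberg adjusted p, over 56932 genes, of at most 0.05 and a change of more than 2-fold). All 5 log2 fold changes were below 0, at -0.19 (SE 0.33, adjusted p = 0.886) for Csa17g093080, -0.35 (SE 0.35, adjusted p = 0.782) for Csa14g063210 and -0.67 (SE 0.30, adjusted p = 0.642) for Csa03g060000 by edgeR. For the NAC055 homeologues edgeR gave -0.74 (SE 0.36, adjusted p = 0.651) for Csa01g018090 and -0.65 (SE 0.29, adjusted p = 0.642) for Csa19g022270. The 5 signs are not separate evidence, since the genes moved together within groups (Pearson's r of 0.70 to 0.98 between pairs, described below).

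Of all genes tested, 0% were called by edgeR in this comparison and 7.77% (4421 genes) were under 0.05 before adjustment. Among the 5 genes this was so for 2, Csa03g060000 (unadjusted p = 0.0459 by edgeR) and Csa19g022270 (unadjusted p = 0.0466 by edgeR). The genes were selected as lower than in these control libraries and moved together, so this count is not read as an excess. DESeq2 called 19 genes. The exact test of edgeR called 1034 at a fixed BCV (the biological coefficient of variation) of 0.2. None of the 5 genes was among them (0 of 5). No gene of the 5 had all *35S::acdS* libraries below the control (0 of 5, beside 7.32% of all genes tested). Without control replicate 2 this held for 5 of 5, beside 11.2% of all genes tested, and for 0 of 5 without control replicate 1 or control replicate 3. The median log2 fold change was -0.65 with all libraries and -0.36, -0.90 and -0.53 without control replicates 1, 2 and 3, with 0 of 5 called by edgeR each time. For Csa17g093080 the direction itself rested on 1 library, since the log2 fold change was 0.09 without control replicate 1.

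The *rolD::acdS* and *35S::acdS* lines, which carry the same gene under different promoters, share no library with the comparison that chose all 5 genes, although the *rolD::acdS* libraries took part in listing 3 of them. For those 3, values below 0 are partly built in. All 5 fitted log2 fold changes of *rolD::acdS* against *35S::acdS* were below 0, at -0.61 (SE 0.34, adjusted p = 0.455 by edgeR) for Csa17g093080, -0.52 (SE 0.35, adjusted p = 0.529) for Csa14g063210 and -0.58 (SE 0.31, adjusted p = 0.438) for Csa03g060000. The values were -0.61 (SE 0.39, adjusted p = 0.509 by edgeR) for Csa01g018090 and -0.33 (SE 0.30, adjusted p = 0.649) for Csa19g022270. None passed the test (0 of 5), as 0% of all genes tested were called, and 0 of 5 had an unadjusted p under 0.05, beside 12.9% of all genes tested (7320 genes). DESeq2 called 115 genes in this comparison, the exact test of edgeR at a BCV of 0.2 called 1370, and the fit of the 6 libraries alone called 15, with 0 of the 5 genes among them. Only Csa17g093080 had all *rolD::acdS* libraries below the *35S::acdS* libraries (1 of 5, beside 10.0% of all genes tested).

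Set against the transgenic lines, *P. migulae* 8R6 libraries, which had chosen the genes as low, were 2.85-fold lower than the *35S::acdS* line for Csa17g093080, 2.74-fold for Csa14g063210 and 2.57-fold for Csa03g060000. For these 3 NAC019 homeologues the libraries did not overlap (3 of 5 genes, beside 12.4% of all genes tested). The NAC055 homeologues differed less, by 1.90-fold for Csa01g018090 and 1.51-fold for Csa19g022270, with overlapping libraries. Against the *rolD::acdS* line, Csa17g093080 was 1.87-fold and Csa14g063210 1.91-fold lower with *P. migulae* 8R6 and did not overlap (2 of 5 genes, beside 9.52% of all genes tested). The remaining genes were 1.72-fold (Csa03g060000), 1.25-fold (Csa01g018090) and 1.20-fold (Csa19g022270) lower and overlapped.

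**Figure D2:**
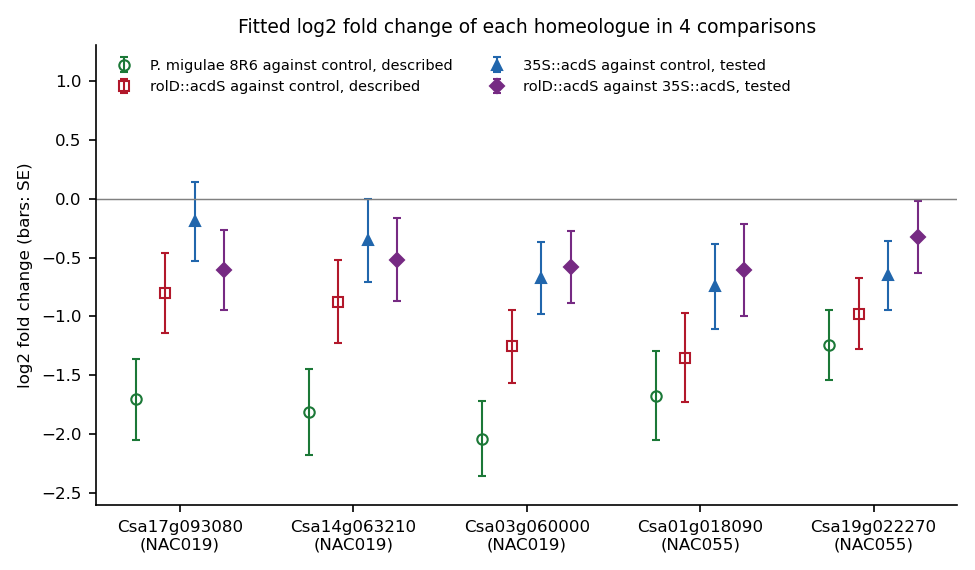
Fitted log2 fold change of each homeologue (points) with its SE (bars) in 4 comparisons. Open symbols are the comparisons that chose the genes and are described only, and filled symbols are those tested with edgeR, in which 0 of 5 genes passed. With *P. migulae* 8R6 the values lie between -2.04 and -1.24, and in the *35S::acdS* line between -0.74 and -0.19.

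The share that each homeologue took of the counts of its family is also given as a description. Family here means the NAC019 or the NAC055 genes followed, and further copies were not looked for. It comes from the same counts and libraries that chose and listed the genes, and since Csa03g060000 is on the list for the *rolD::acdS* line and Csa17g093080 is not, a lower share of the former there is partly built in. Csa17g093080 made up 43.3%, 42.0% and 45.1% of the NAC019 counts in the control. With *P. migulae* 8R6 its share was 47.6%, 46.8% and 45.8%. The *35S::acdS* libraries gave 47.0%, 48.0% and 51.0%, and the *rolD::acdS* libraries 46.9%, 47.9% and 47.4%. All control libraries thus lay below the 9 other libraries, with group means of 43.5% in the control and 46.7% to 48.7% in the other groups.

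Csa03g060000 was the counterpart, at 20.7%, 23.6% and 20.1% of the NAC019 counts in the control. With *P. migulae* 8R6 it took 17.0%, 17.3% and 20.9%. Libraries of the *35S::acdS* line gave 16.5%, 16.2% and 17.6%, and the *rolD::acdS* libraries 17.6%, 14.0% and 16.8%. The control libraries lay above those of both transgenic lines, but *P. migulae* 8R6 replicate 3 lay among the control libraries. Since the 3 shares add up to the whole, these values are not independent of those of Csa17g093080.

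The share of Csa14g063210 stayed between 31.4% and 38.1% over the 12 libraries. Csa01g018090 took 16.4% to 30.3% of the counts of the 2 NAC055 homeologues followed, which may not be all NAC055 copies. NAC019 homeologues held 80.0% to 91.1% of the counts of the 5 genes, with group means of 88.3% for the control, 84.0% for *P. migulae* 8R6, 90.5% for *35S::acdS* and 89.0% for *rolD::acdS*. A planned exact permutation test of the 5 shares over the 12 libraries gave p = 0.00435 for Csa17g093080 (two-sided, 0.0218 adjusted over the 5), but it uses the values that chose the genes, and its adjusted p was 0.0714 without the *P. migulae* 8R6 libraries and 0.113 in a test blocked by replicate number. No difference in shares is therefore claimed. How reads that fit more than 1 homeologue were counted is not given in the sources used here, so homeologue counts can share reads, and the shares carry that uncertainty.

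**Figure D3:**
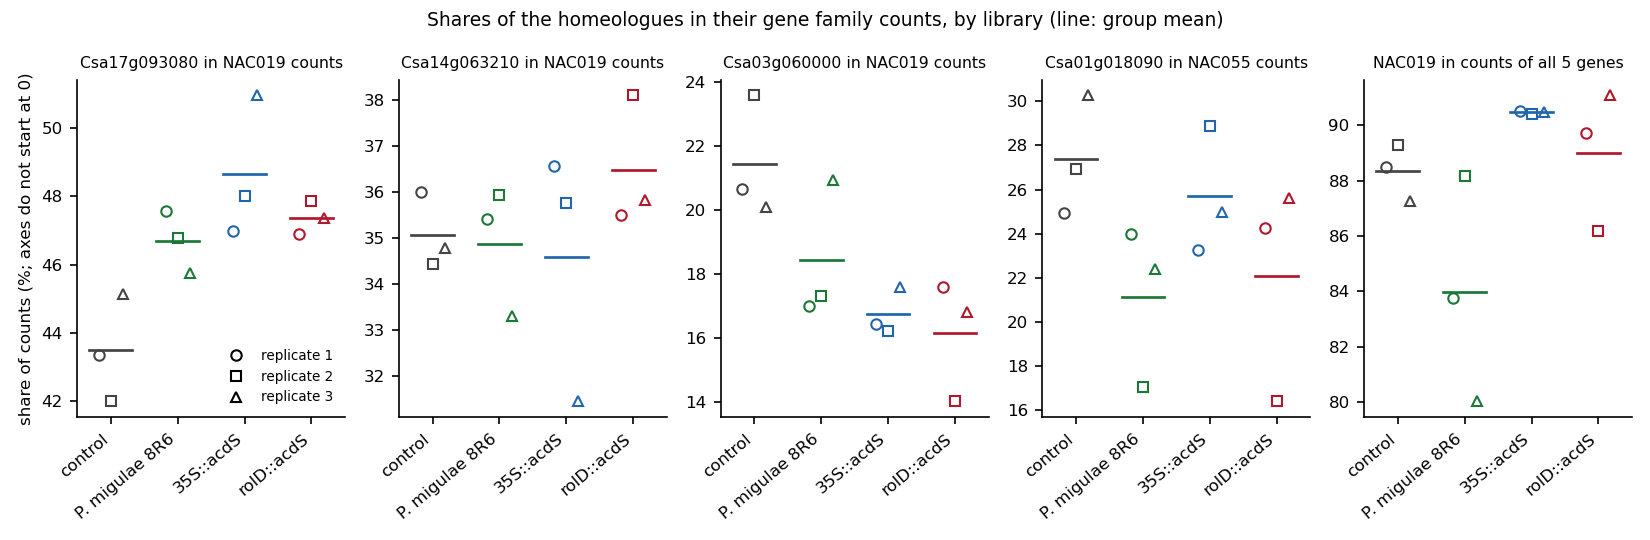
Share (%) of each homeologue in the counts of its family (the NAC019 or the NAC055 genes followed) in each library. The share of NAC019 in the counts of all 5 genes is also shown, and lines mark the mean of 3 libraries. The axes do not start at 0. The share of Csa17g093080 is 42.0% to 45.1% in the control and 45.8% to 51.0% in the 9 other libraries.

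The genes also moved together from library to library within a group. In *P. migulae* 8R6 replicate 3 and *35S::acdS* replicate 3 all 5 genes lay below their group means (mean deviations of -0.47 and -0.34 on the log2 scale), and in *rolD::acdS* replicate 2 this was so for 4 of 5 (mean deviation -0.41). Pearson's r of the deviations from the group means over the 12 libraries was 0.93 to 0.98 between NAC019 homeologues, 0.84 between the NAC055 homeologues and 0.70 to 0.81 between NAC019 and NAC055. These are descriptions over 12 points that share libraries and depth, and homeologues can share reads. With the group means removed, the deviations within each group cancel out, so the 12 points are not independent.

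RD26 homeologues were among the genes most alike to the 5. RD26 is a NAC factor that in *A. thaliana* is induced by drought and ABA. Of all genes tested other than the 5, the 3 most alike to the mean of the 5 (standardised log2 CPM over 12 libraries) were the RD26 homeologue Csa10g015440 (r = 0.97), Csa03g019130 (r = 0.97), to which the sources used here give no name, and the RD26 homeologue Csa11g016750 (r = 0.97). Csa03g019130 varied far less between groups, with group means of 35.0 to 47.0 CPM. Of the 50 most alike genes, whose lowest r was 0.91, 20 carry an annotation in the study's lists, the only annotation used (that for the *rolD::acdS* line was held in part), and these 20 are all on the list for *P. migulae* 8R6. This is largely fixed by the choice and is not a finding, since the 5 genes were selected as low with *P. migulae* 8R6 in the same libraries.

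The 3 RD26 homeologues together stood at 279, 78.6 and 196 CPM in control replicates 1, 2 and 3, and at 69.3, 49.2 and 23.6 CPM with *P. migulae* 8R6. The *35S::acdS* libraries gave 174, 142 and 90.2 CPM, and the *rolD::acdS* libraries 130, 50.4 and 92.3 CPM. Control replicate 2 was thus the lowest control library for RD26 as well, and the lowest library of each other group was the same as for the sum of the 5 genes. With the group means removed, r with the mean of the 5 genes was 0.95 to 0.98 for the 3 RD26 homeologues, against a median of 0.39 for 8 other NAC genes and -0.01 for all genes tested. Some of these other NAC genes had low levels, such as NAC042 with group means of 0.22 to 1.68 CPM. RD26 was not alone in its likeness: r was 0.97 for the MYB74 homeologue Csa02g009840. The 17 ABA genes described below had a median of 0.77 (0.39 to 0.95, the highest being NCED3 Csa15g018820). Other genes reached up to 0.98 by this measure, among them Csa01g017000 (r = 0.98), which was slightly above each RD26 homeologue and was singled out after its value was seen.

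**Figure D4:**
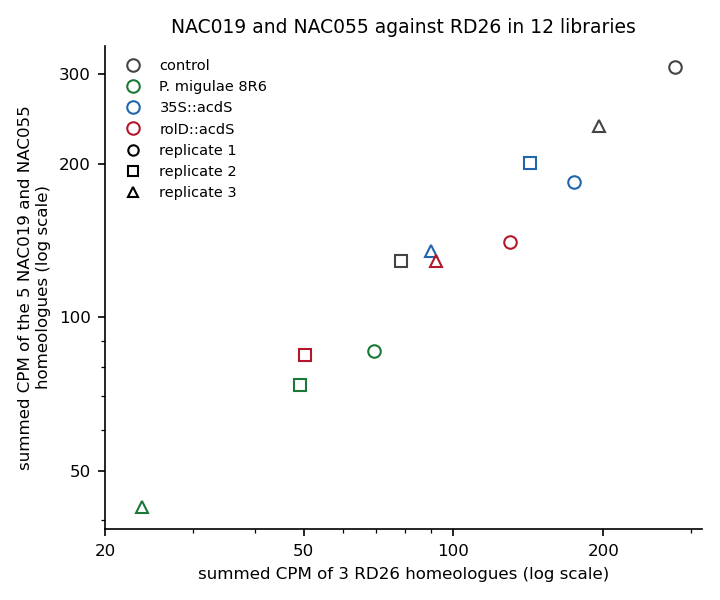
Summed CPM of the 5 NAC019 and NAC055 homeologues (vertical, log axis) against that of the 3 RD26 homeologues (horizontal, log axis) in each of the 12 libraries, coloured by group. *P. migulae* 8R6 replicate 3 is lowest on both axes (42.4 and 23.6 CPM) and control replicate 1 highest (309 and 279 CPM).

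Genes of the pathways that NAC019 and NAC055 belong to were counted from the study's annotations. Because the study chose these genes on the same libraries, the lists are no independent evidence of a direction. In the tested comparisons 0 genes of any list were called by edgeR, and values are given as descriptions beside medians of 0.00 for all genes tested in *35S::acdS* against control and in *rolD::acdS* against *35S::acdS*. Counts of genes whose libraries lay below all control libraries stand beside 7.03% of all genes tested with *P. migulae* 8R6, 7.23% in the *rolD::acdS* line and 7.32% in the *35S::acdS* line, and without control replicate 2 beside 16.4%, 16.6% and 11.2%.

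The RD26 medians against the control, with the same control libraries, ran in the same order as those of the 5 genes. The median log2 fold change was -1.92 with *P. migulae* 8R6 (libraries below all control libraries for 3 of 3 genes), -1.01 for *rolD::acdS* and -0.48 for *35S::acdS*, each against the control, and -0.64 in *rolD::acdS* against *35S::acdS*. The *rolD::acdS* libraries lay below the control for 0 of 3 genes and the *35S::acdS* libraries for 0 of 3, and without control replicate 2 for 3 of 3 and 2 of 3. For Csa10g015440 the values were -2.06 (SE 0.48), -1.01 (SE 0.47), -0.63 (SE 0.46, adjusted p = 0.713 by edgeR) and -0.38 (SE 0.47, adjusted p = 0.747).

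The 17 ABA genes comprise NCED3, which catalyses the rate-limiting step of ABA synthesis, the phosphatases HAI1, HAI2, PP2CA, ABI2 and PP2C5, most of which restrain ABA signalling, and the ABA-responsive RD29B and RAB18. Their median log2 fold change was -1.67 with *P. migulae* 8R6, where 15 of 17 had libraries below all control libraries, -0.63 in the *rolD::acdS* line (6 of 17) and -0.15 in the *35S::acdS* line (3 of 17). Without control replicate 2 these counts were 16, 10 and 6 of 17. In *rolD::acdS* against *35S::acdS* the median was -0.36, and 16 of 17 were below 0. The NCED3 homeologues Csa19g021150 and Csa15g018820 were at -1.67 (SE 0.43) and -1.77 (SE 0.45) with *P. migulae* 8R6 and at -0.66 (SE 0.42, adjusted p = 0.681 by edgeR) and -0.39 (SE 0.44, adjusted p = 0.810) in the *35S::acdS* line. RD29B (Csa18g023200) was the lowest of the list with *P. migulae* 8R6, at -2.36 (SE 0.51), and the highest in the *35S::acdS* line, at 0.68 (SE 0.48, adjusted p = 0.706 by edgeR). Thus 7 of the 17 ABA genes had values above 0 in the *35S::acdS* line. All 5 NAC019 and NAC055 genes had values below 0 there, which is partly built in by the shared control.

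The 24 JA genes include enzymes of JA synthesis (LOX3, LOX4, AOC, OPR3), the JAZ repressors, MYC2 and VSP1, a gene induced by JA. All 24 had log2 fold changes below 0 with *P. migulae* 8R6 (median -1.42), and in 19 of 24 the libraries lay below all control libraries. In the *rolD::acdS* line the median was -0.31, with 1 of 24 below all control libraries, and in the *35S::acdS* line it was -0.57 with 3 of 24. Without control replicate 2 the counts were 24 of 24 with *P. migulae* 8R6, 16 of 24 for *rolD::acdS* and 19 of 24 for *35S::acdS*. They stand beside 16.4%, 16.6% and 11.2% of all genes tested. Leaving out a control library can only raise such counts, so the rise by itself is not a finding. Between both lines all 5 NAC019 and NAC055 genes had values below 0, which is partly built in for those listed for the *rolD::acdS* line. Of the JA genes, 18 of 24 had log2 fold changes above 0 in *rolD::acdS* against *35S::acdS* (median 0.30). In 5 of 24 all *rolD::acdS* libraries lay above those of the *35S::acdS* line, beside 9.95% of all genes tested. VSP1 (Csa08g022350) was the most extreme, at 2.30 (SE 0.42, adjusted p = 0.296 by edgeR), and had been the lowest of the list in *35S::acdS* against control, at -2.16 (SE 0.41, adjusted p = 0.608). Both values rest on low levels, 0.31 to 0.53 CPM in the *35S::acdS* libraries, beside 1.96 to 2.29 CPM in the control and 1.45 to 2.95 CPM in the *rolD::acdS* line. MYC2 (Csa17g053090) was at -0.60 (SE 0.19) with *P. migulae* 8R6, the smallest difference of the list, at -0.99 (SE 0.19, adjusted p = 0.608 by edgeR) in the *35S::acdS* line and at 0.44 (SE 0.19, adjusted p = 0.380) between both lines.

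The list of other NAC genes was drawn mostly from the study's calls in the transgenic lines. The 8 that could be tested (of 9) had a median log2 fold change of -0.90 with *P. migulae* 8R6 (1 of 8 below all control libraries), -1.56 in the *rolD::acdS* line (8 of 8) and -0.97 in the *35S::acdS* line (7 of 8). Without control replicate 2 these counts were 6, 8 and 8 of 8. NAC102 (Csa18g037380) was at -0.89 (SE 0.18), -0.74 (SE 0.18) and -0.96 (SE 0.18, adjusted p = 0.608 by edgeR) in the same order. NAC042 (Csa05g007460) was the lowest of them in the *rolD::acdS* line, at -3.01 (SE 0.76), from low levels of 0.09 to 0.39 CPM there and 1.01 to 2.20 CPM in the control. The 19 ethylene genes, among them ACC synthases (ACS2, ACS7) and ethylene response factors, were at medians of -1.08, -1.51 and -1.17, and the 9 senescence genes at -0.68, -1.08 and -0.66. The senescence genes were not uniform, with 1, 3 and 0 of 9 above 0 in the same order. The 3 in the *rolD::acdS* line were RNS1 homeologues, at 1.23 (SE 0.37, Csa09g005240), 1.07 (SE 0.34, Csa04g008480) and 0.46 (SE 0.47, Csa06g002980). Differences between lists were not tested. The photosynthesis genes, singled out by the study for this group, were at 1.72 with *P. migulae* 8R6, with all 4 above all control libraries, beside 7.43% of all genes tested.

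**Figure D5:**
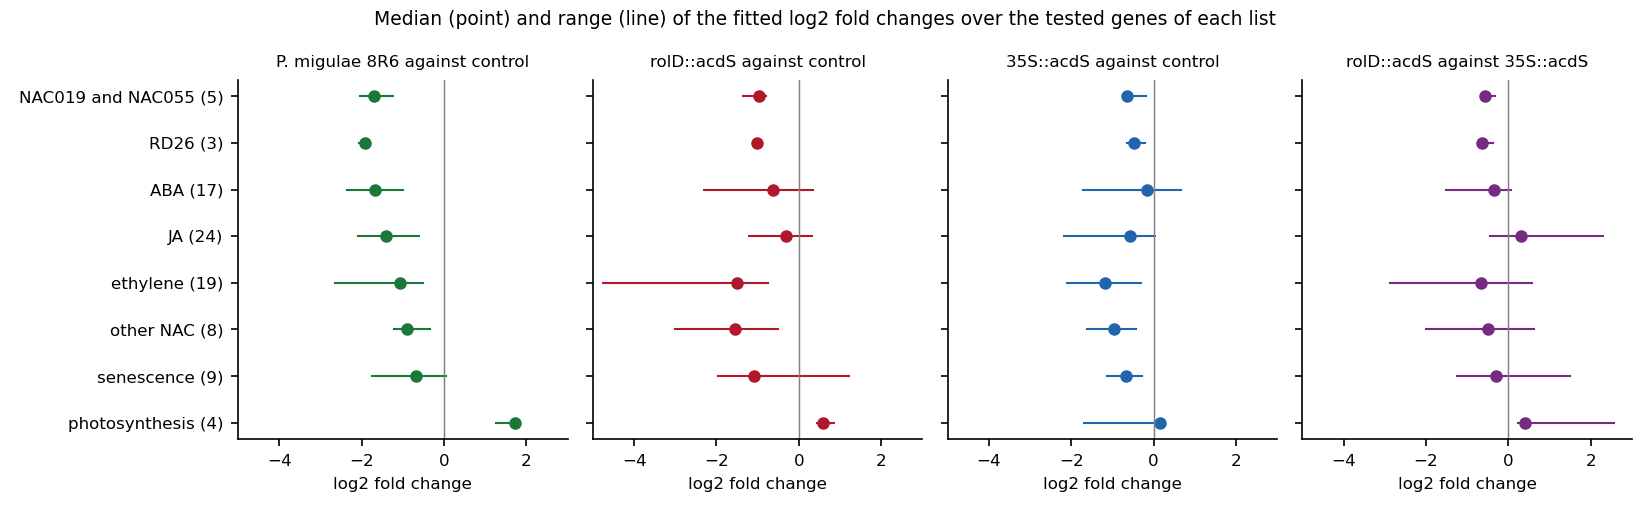
Median (points) and lowest to highest value (lines) of the fitted log2 fold changes over the tested genes of each list, in 4 comparisons, with the number of genes in parentheses. The NAC019 and NAC055 genes have medians of -1.70, -0.98, -0.65 and -0.58, and the JA genes lie mainly above 0 in *rolD::acdS* against *35S::acdS* (median 0.30).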

How the data were processed

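RNA-seq libraries of *C. sativa* shoots (12 libraries, 4 groups of 3 biological replicates) were analysed. Per the submitters' processing notes, Trimmomatic and STAR were used for trimming and mapping. The authors deposited counts, the whole number of reads for each of 89418 genes. Versions, the handling of reads that map to several homeologues and the use of strand in counting are not given in the sources used here. Although the table is named for CPM, it holds whole numbers with unequal totals, which were treated as counts.

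Genes reaching 0.5 CPM in 3 or more libraries (56932) were normalised by TMM and tested with edgeR 4.0.16 (quasi-likelihood test, R 4.3.3), all 4 groups in 1 fit, with p-values adjusted by Benjamini-Hochberg over these genes. The common BCV was 0.189. A call needed an adjusted p of at most 0.05 and a change of more than 2-fold. The SE of a log2 fold change is its size over the root of F. Shares were tested by exact permutation of all divisions of the libraries into the 4 groups. Alternatives used DESeq2 1.42.0, limma 3.58.1, other normalisations, filters and fits, and left-out libraries.

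The members and gene lists were chosen with earlier results of these data known. Named were the 5 genes, the lowest and highest of a list, the study's RD26, NCED3, MYC2, VSP1 and NAC102, and the 3 genes most alike. Of those lowest or highest values, the text gives the ones that bear on the 5 genes.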

Additional observations from a re-analysis of the deposited data

How the results depend on the processing

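Across the alternatives run, the 5 genes kept their sign and their side of the threshold in the tested comparisons, with 0 of 5 called each time, except that the log2 fold change of Csa17g093080 in *35S::acdS* against control was 0.086 without control replicate 1. Over all left-out libraries this value lay between -0.48 and 0.086. The lowest adjusted p of any of the 5 genes was 0.143 in this comparison and 0.188 in *rolD::acdS* against *35S::acdS*. The numbers of all genes called in these comparisons, 0 and 0 by edgeR, ranged up to 1034 and 1370 with the exact test at a BCV of 0.2, and were 0 and 0 with the BCV at 2, the value in the study's methods.

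The share test uses the values that chose the genes and supports no difference. Its exact permutation p for Csa17g093080 lay between 0.00169 and 0.0227 when single libraries were left out. Adjusted over the 5 shares it lay between 0.00844 and 0.111, and was at most 0.05 in 6 of 12 cases. The unadjusted exact permutation p was 0.0143 without the *P. migulae* 8R6 libraries, an alternative chosen after seeing the data. For the share of Csa03g060000 the exact permutation p lay between 0.0162 and 0.0691 (0.0404 to 0.135 adjusted, at most 0.05 in 1 of 12). For the share of NAC019 in the 5 genes it lay between 0.00623 and 0.143 (0.0312 to 0.238 adjusted, at most 0.05 in 1 of 12). Counts of genes lying below the control, which went from 0 to 5 (*35S::acdS*) and from 2 to 5 (*rolD::acdS*) without control replicate 2, were also an alternative chosen after seeing the data.

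Same-numbered libraries did not deviate together in every pair of groups (r from -0.35 to 0.30 over 18 pairs, 9 of them over 0.1), so replicate numbers were not used to pair libraries, although between *P. migulae* 8R6 and *35S::acdS* all 3 pairs were over 0.1 (0.173, 0.179 and 0.187). With a replicate block the exact permutation p of the share of Csa17g093080 was 0.0226 (0.113 adjusted), and the number of the 5 genes called stayed at 0 in both tested comparisons. The lowest count behind a value of the 5 genes was 21, in Csa01g018090.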
